A study of Mus musculus with 18 samples.

Results

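The collagen family was taken as every protein-coding gene whose name in the deposited tables is Col, a type number, the letter a and a chain number, which gave 44 genes of the 54532 in the tables, 22046 of them protein coding. By the class of their protein, 11 of the 44 encode chains of fibrillar collagens, 6 encode chains of the basement membrane collagen of type IV, and 27 encode chains of other types. RNA of all 44 was counted in 18 libraries of poly(A) RNA from mouse large bowel, made from 10 µg of total RNA each and sequenced with paired reads of 150 bases. The libraries fall into 8 groups, from tumours and from inflamed colon of 2 mutant lines on the C57BL/6 strain.

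Tumour libraries came from colorectal tumours of the AOM/DSS model, in which the mutagen azoxymethane is followed by the irritant dextran sulfate sodium. They comprise 2 libraries each of Il1f5-/-, Il1f5+/+, Il1f9-/- and Il1f9+/+ mice. Colitis libraries came from a piece of distal colon 0.5 cm long, taken after 5 days of 2.5% dextran sulfate sodium in drinking water and 2 days of plain water. They comprise 3 libraries of Il1f5-/-, 3 of Il1f5+/+, 2 of Il1f9-/- and 2 of Il1f9+/+ mice. Il1f5 encodes the antagonist of the interleukin-36 receptor and Il1f9 encodes one of its activating ligands. The groups share the strain and exposure to dextran sulfate sodium, while azoxymethane was part of the tumour model only. No library from untreated colon is among the 18. The series text gives the colitis numbers as mice, but no source used here says that each tumour library came from a separate mouse, so p-values measure the spread between these samples.

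Collagens are the main structural proteins of the extracellular matrix. Fibrillar types I, III and V form the tensile fibrils of the gut submucosa, type IV forms the sheet under epithelium and around vessels and muscle cells, and the other types link fibrils, anchor epithelium or span cell membranes. In the gut they are made mostly by fibroblasts and smooth muscle cells, and for the basement membrane types also by endothelium and epithelium. In whole tissue, fewer cells of a type and less RNA per cell cannot be told apart.

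Total counts ranged from 16621611 to 23776174 per library, and collagen genes took 0.0942% to 0.594% of them. Il1f9 had 9 and 1 reads in Il1f9-/- colitis libraries, against 232 and 90 in Il1f9+/+ ones, and 2 and 0 in Il1f9-/- tumours, against 1652 and 752 in Il1f9+/+ ones. For Il1f5 the reads lay on the other side of the labels. The libraries labelled Il1f5-/- had 36, 43 and 45 reads in colitis and 211 and 102 in tumours, against 0 in every library labelled Il1f5+/+ and 0 in the Il1f9 line. The tables give counts per gene and not per exon, so this does not show which allele the reads came from, and the groups of this line are named by label throughout. Whether its labels were exchanged was not tested. With exchanged labels each direction given for the Il1f5 line would turn round, and comparisons that use its +/+ libraries would use its other libraries. Gut epithelium markers (11 genes such as Epcam, Vil1 and Krt20) summed to 11796 to 26871 CPM (reads scaled to library size) in tumours and 13345 to 20158 CPM in colitis colon, with no marker at 0 in all libraries of a tissue.

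Set per kilobase of gene length, Col3a1, the chain of the type III collagen of distensible organs, was the most abundant collagen in both tissues. Its level averaged 45.9 ± 15.9 CPM per kilobase in tumours (SD, n = 8) and 109 ± 35.8 in colitis colon (SD, n = 10). In tumours the next levels were 25.7 CPM per kilobase for Col4a1, 23.1 for Col1a1, 19.1 for Col4a2 and 15.9 for Col18a1, and in colitis colon they were 53.7 for Col1a1, 51.9 for Col4a1, 45.5 for Col6a1 and 42.1 for Col4a2. Neighbours in each order after Col3a1 differed by less than their spread between libraries, which was 16.9 for Col1a1 and 22.6 for Col4a1 in colitis colon. At the low end, Col19a1 had 1 read or none in every library. Fibrillar chains made up 45.8% ± 6.14 of the collagen level per kilobase in tumours and 50.4% ± 3.87 in colitis colon, basement membrane chains 21.6% ± 2.78 and 21.1% ± 2.13, and the others 32.6% ± 4.88 and 28.5% ± 3.28 (SD over 8 tumour and 10 colitis libraries).

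**Figure D1:**
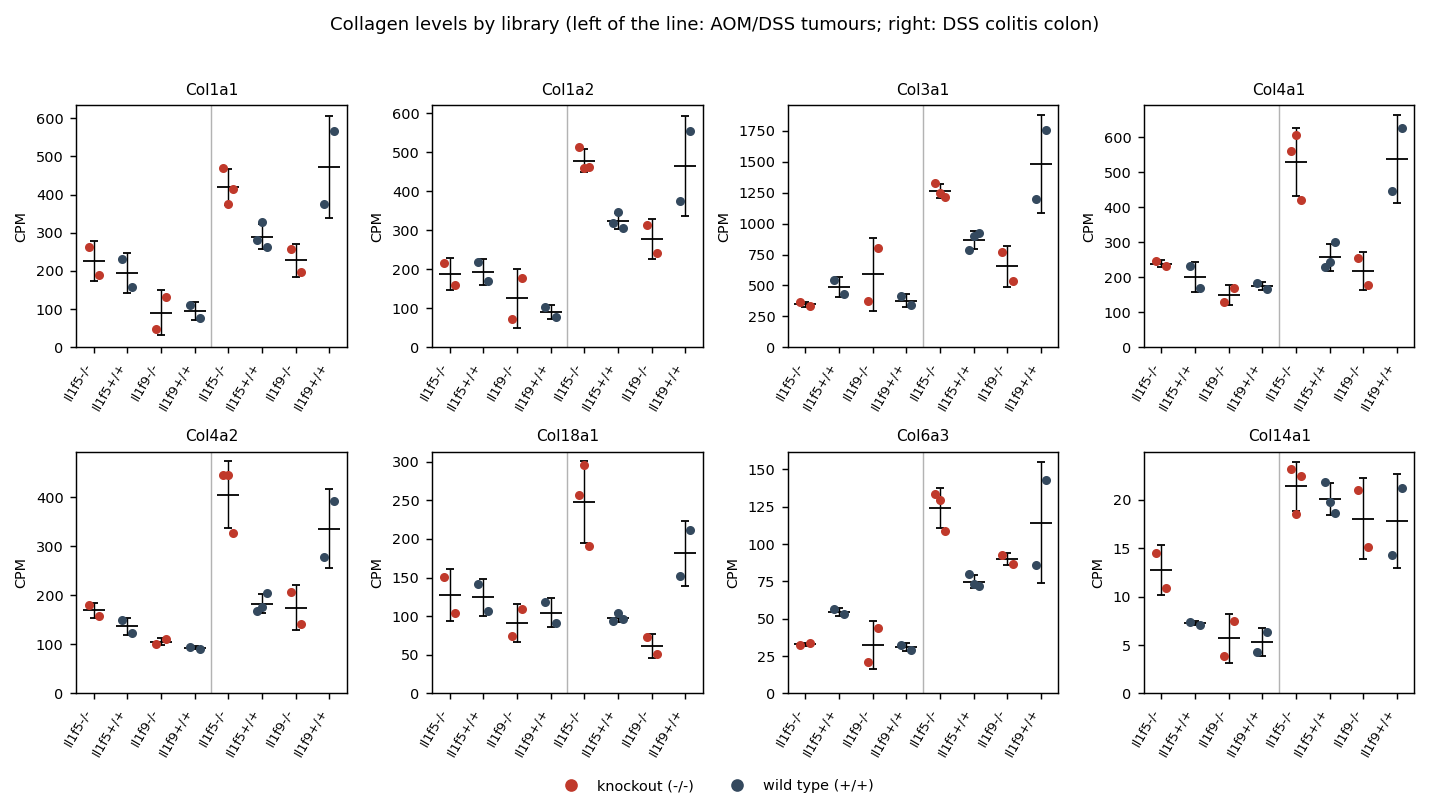
Level of 8 collagen genes in each library, in CPM on a linear axis, with tumours left of the grey line and colitis colon right of it, and -/- libraries left of +/+ ones; points are libraries, bars are mean ± SD. For Col3a1 the 3 colitis libraries labelled Il1f5-/- lie at 1327, 1249 and 1212 CPM, all above the 3 labelled Il1f5+/+, while the 2 Il1f9-/- libraries lie below both Il1f9+/+ ones.

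In colitis colon, collagen RNA was higher in the libraries labelled Il1f5-/- than in those labelled Il1f5+/+ across all 3 classes. Of the 38 collagens with enough reads to be tested, 25 rose, none fell and 13 were not called, at an adjusted p under 0.05 in edgeR's quasi-likelihood test with Benjamini-Hochberg adjustment over all 18299 genes tested. Among all those genes 13.7% rose and 24.7% were called in either direction. The 25 are 8 of 10 fibrillar, 4 of 6 basement membrane and 13 of 22 other chains. The median log2 fold change of the 38 was 0.85, against -0.01 over all genes tested. At an unadjusted p under 0.05 the counts were 31 higher and 0 lower, among 3739 higher and 3390 lower of all genes tested. Scaled by library totals alone, 26 collagens rose, and all genes split into 2845 higher and 1475 lower, against 2501 and 2015 with the scaling used. In 28 of all 44 members each library labelled Il1f5-/- lay above each labelled Il1f5+/+, and in 0 members below. The share of all genes without such overlap was not computed, so nothing is read from this count.

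Type I and type III chains, the bulk of tissue fibrils, rose least among the called fibrillar chains. Col3a1 had 1327, 1249 and 1212 CPM in the libraries labelled Il1f5-/-, against 789, 898 and 921 in those labelled Il1f5+/+, a log2 fold change of 0.54 ± 0.16 (adjusted p = 0.0314) with its standard error. Col1a1 had 468, 374 and 414 CPM, against 281, 327 and 262, with a log2 fold change of 0.53 ± 0.16 (adjusted p = 0.0367). Col1a2, the second type I chain, had 513, 459.6 and 463 CPM, against 319, 346 and 306, with a log2 fold change of 0.57 ± 0.14 (adjusted p = 0.017). The groups did not overlap for any of the 3 genes, but their calls lay near the threshold. The call of Col1a1 was lost when any 1 of the 6 libraries was left out (adjusted p from 0.0519 to 0.128), that of Col3a1 without each library but replicate 3 labelled Il1f5-/- (up to 0.119), and that of Col1a2 without replicate 1 or 3 labelled Il1f5+/+ or replicate 1 labelled Il1f5-/- (up to 0.064).

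Type V chains, minor fibril components that set fibril diameter, had larger log2 fold changes. Col5a3 had 48.5, 56.8 and 40.3 CPM in the libraries labelled Il1f5-/-, against 14.0, 13.7 and 15.8 in those labelled Il1f5+/+, a log2 fold change of 1.74 ± 0.21 (adjusted p = 0.00137). Col5a1 had 178, 184 and 146 CPM, against 88.1, 92.4 and 87.2, and Col5a2 132, 153 and 112 CPM, against 64.5, 67.8 and 67.2, with log2 fold changes of 0.93 ± 0.16 (adjusted p = 0.00459) and 1.0 ± 0.19 (adjusted p = 0.0073). No type V chain overlapped between the groups, and the 3 calls held when each library was left out in turn. Col27a1, a fibrillar chain known from cartilage, rose by 1.16 ± 0.25 (adjusted p = 0.0119) on the log2 scale, with adjusted p = 0.0504 without replicate 1 labelled Il1f5+/+. Col11a1, a type XI chain, had 62, 60 and 12 reads, against 4, 7 and 16. Replicate 3 labelled Il1f5-/- lay within the Il1f5+/+ range in CPM, and the call of Col11a1 (adjusted p = 0.0154) was lost without any of 4 libraries, replicates 1 and 2 of either label. Col24a1 (0.93 ± 0.32, adjusted p = 0.0534) and Col11a2 (0.32 ± 0.33, adjusted p = 0.509) were not called. In place of 8, the number of fibrillar chains called was 3 without replicate 1 labelled Il1f5+/+, 4 without replicate 1 labelled Il1f5-/-, and 5 without replicates 2 or 3 labelled Il1f5+/+ or replicate 2 labelled Il1f5-/-.

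Col4a1 and Col4a2, the type IV chains found in nearly every basement membrane, are shown here at sequence level because they lie head to head and were called in both lines of colitis mice. The starts of the 2 genes overlap by 22 bases on chromosome 8 of the mouse, with Col4a1 read from the minus strand and Col4a2 from the plus strand. Promoter windows of 300 bases, from 250 bases before to 50 after each RefSeq start on build GRCm38.p6, cover chr8:11312777-11313076 for Col4a1 and chr8:11312555-11312854 for Col4a2. Capitals mark the 78 bases, chr8:11312777-11312854, that both windows hold, each written 5′ to 3′ on its own gene's strand.
Col4a1: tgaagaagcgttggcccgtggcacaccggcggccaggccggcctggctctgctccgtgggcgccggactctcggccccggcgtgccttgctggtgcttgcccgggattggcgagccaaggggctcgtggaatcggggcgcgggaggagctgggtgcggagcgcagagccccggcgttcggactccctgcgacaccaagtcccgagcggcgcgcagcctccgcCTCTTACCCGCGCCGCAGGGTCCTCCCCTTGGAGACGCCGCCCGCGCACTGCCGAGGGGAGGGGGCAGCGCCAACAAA
Col4a2: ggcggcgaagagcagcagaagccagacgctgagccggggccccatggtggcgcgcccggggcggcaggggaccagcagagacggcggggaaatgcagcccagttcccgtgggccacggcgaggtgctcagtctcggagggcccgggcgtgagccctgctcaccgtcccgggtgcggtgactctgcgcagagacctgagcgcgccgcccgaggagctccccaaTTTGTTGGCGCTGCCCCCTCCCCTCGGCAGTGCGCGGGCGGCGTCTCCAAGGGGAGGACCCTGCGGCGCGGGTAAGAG
The shared stretch holds 1 match to GGGCGG, the core of a GC box, and none to TATAAA or CCAAT, searched on both strands. Windows were at hand for 35 of the 44 collagen genes, 38 windows in all. Of these, 23 hold GGGCGG, 13 CCAAT and 5 TATAAA, while among 32841 promoter windows of all genes 35.7% hold GGGCGG, 37.4% CCAAT and 13.6% TATAAA. None of the 5 basement membrane windows holds TATAAA. Such matches describe letters only.

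Both genes were higher in colitis colon labelled Il1f5-/-. Col4a1 had 562, 608 and 420.3 CPM, against 229, 243 and 302 in libraries labelled Il1f5+/+, a log2 fold change of 1.04 ± 0.19 (adjusted p = 0.00604). Col4a2 had 445, 445 and 326 CPM, against 168, 176 and 205, a log2 fold change of 1.15 ± 0.18 (adjusted p = 0.00327). For neither gene did the groups overlap, and both calls held without each library in turn. Col4a5 and Col4a6, neighbours on the X chromosome whose chains form the type IV network around smooth muscle, had smaller log2 fold changes of 0.48 ± 0.16 (adjusted p = 0.0439) and 0.65 ± 0.21 (adjusted p = 0.0455). Their calls were lost without replicate 2 or 3 labelled Il1f5+/+ or replicate 1 or 2 labelled Il1f5-/- (adjusted p up to 0.139 and 0.163), which left 2 basement membrane chains called in place of 4. Col4a3 and Col4a4, the chains of the kidney filter, had at most 35 reads in a colitis library and were not called (-0.58 ± 0.45 and 1.11 ± 0.45).

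Among the other types, chains of the basement membrane zone and of pericellular filaments rose. Col18a1, the multiplexin that carries endostatin, had 256, 295 and 191 CPM in libraries labelled Il1f5-/-, against 93.7, 105 and 95.8 in those labelled Il1f5+/+, a log2 fold change of 1.34 ± 0.19 (adjusted p = 0.00253). The type VI chains, which form beaded filaments next to cells, had log2 fold changes of 1.10 ± 0.17 (adjusted p = 0.00253) for Col6a1, 1.07 ± 0.17 (adjusted p = 0.00285) for Col6a2 and 0.73 ± 0.16 (adjusted p = 0.0107) for Col6a3. Col6a1 had 323, 332 and 228 CPM, against 143, 132 and 136, and no library of one label reached the range of the other. Their partners Col6a4 and Col6a5, which can take the place of Col6a3, were not called (0.40 ± 0.15 and 0.61 ± 0.27). The transmembrane chain Col23a1 had 25.3, 29.8 and 26.2 CPM, against 12.8, 10.8 and 12.5, a log2 fold change of 1.17 ± 0.17 (adjusted p = 0.00187).

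The chains that anchor stratified epithelium were scarce in colitis colon but passed the test. Col7a1, the anchoring fibril collagen, had 8.96, 9.21 and 4.64 CPM in libraries labelled Il1f5-/-, against 1.36, 1.87 and 2.13 in those labelled Il1f5+/+, a log2 fold change of 2.08 ± 0.38 (adjusted p = 0.00496). Col17a1, the hemidesmosome collagen, had 15, 12 and 12 reads, against 6, 2 and 4, a log2 fold change of 1.72 ± 0.47 (adjusted p = 0.0232). The groups did not overlap for either gene, and the call of Col17a1 was lost without replicate 2 or 3 labelled Il1f5+/+ or replicate 1 labelled Il1f5-/- (adjusted p up to 0.0839). Squamous epithelium markers summed to 7.21 to 7.41 CPM, against 5.88 to 7.91, with 1 of 6 tested, Krt14, higher. Col17a1 passed the filter on low counts mainly through the libraries in which it was higher. The remaining called chains were Col9a2, Col12a1 and Col16a1 of the fibril-associated types, the multiplexin Col15a1 and the transmembrane Col13a1 and Col25a1, with log2 fold changes from 0.57 to 1.94. Without each library in turn, the calls of Col12a1, Col13a1 and Col25a1 were lost in 4, 5 and 4 of 6 cases. Col9a3, Col14a1, Col20a1, Col22a1, Col8a1, Col8a2 and Col28a1 were not called, with log2 fold changes from -0.03 to 0.91. Over all 38, the number called higher was 15 without replicate 1 labelled Il1f5-/-, 16 without replicate 2 labelled Il1f5+/+, and 17 to 27 without each of the other 4 libraries. Of all genes 1443, 1108 and 1158 to 3049 were called higher in these fits, against 2501 with all libraries.

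Genes that make, trim and bind collagen were called in both directions, where 13.7% of all genes rose and 2015 of 18299 fell. Of 21 genes for chain folding and modification, 10 rose and 4 fell, among them the lysyl hydroxylase chaperone Fkbp10 (log2 fold change 1.06 ± 0.21), the prolyl 3-hydroxylase P3h2 (0.96 ± 0.19), P3h4 (0.75 ± 0.14) and, lower, the prolyl 4-hydroxylase subunit P4hb (-0.52 ± 0.10). Of 14 tested genes for procollagen cleavage and cross-linking 7 rose and none fell, led by Bmp1, which removes the C-terminal propeptide (1.06 ± 0.14), Loxl1 (0.92 ± 0.16), Adamts2 (0.70 ± 0.15) and Loxl2 (1.10 ± 0.21). Of 7 tested collagen-cleaving proteases, Mmp2 (1.21 ± 0.14), Ctsk (1.14 ± 0.17) and Mmp14 (0.71 ± 0.12) rose and none fell. Among 11 tested collagen receptors, Mrc2 (0.79 ± 0.16), Adgrg6 (1.37 ± 0.27), Itga1 (0.87 ± 0.21) and Ddr2 (0.79 ± 0.22) rose and Itga2 fell (-0.34 ± 0.08). Of 16 other basement membrane genes 13 rose, with Lamb2 (0.94 ± 0.14), Lamb1 (0.86 ± 0.14), Pxdn (0.92 ± 0.18) and Nid1 (0.89 ± 0.17) first by p, and 1 fell. Of 11 tested genes of transforming growth factor beta signalling, which drives collagen transcription in fibroblasts, 9 rose and none fell, with Ltbp1 (0.98 ± 0.14), Ltbp4 (0.62 ± 0.11), Tgfbr3 (1.24 ± 0.21) and Ltbp3 (1.07 ± 0.19) first by p.

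Markers of the cells that make collagen moved with these genes. Of the fibroblast markers, 10 of 12 rose, and their summed level was 1013 to 1115 CPM in libraries labelled Il1f5-/-, against 558 to 621 in those labelled Il1f5+/+. Smooth muscle markers rose for 9 of 11 (3911 to 5550.1 CPM, against 2326 to 2588), endothelial markers for 11 of 11 (298 to 378, against 171 to 184 CPM), pericyte markers for 5 of 6 tested, enteric neuron and glia markers for 8 of 10 and mesothelial markers for 4 of 5. Adipocyte markers rose for 1 of 6, with sums of 182 to 347 CPM, against 101 to 175. Gut epithelium markers fell for 3 of 11, and their sums were 13712 to 16102 CPM, against 16626 to 17649, while 0 of 8 leukocyte markers was called. No marker of these lists was at 0 in all colitis libraries. Their part in the collagen difference was not tested.

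In the Il1f9 line, fibrillar and type IV chains and Col18a1 were lower in Il1f9-/- colitis colon. Of the 38 tested collagens 9 fell in Il1f9-/- colitis colon, none rose and 29 were not called, where 9.98% of all genes tested fell and 9.59% rose. The 9 are 6 of 10 fibrillar chains, 2 of 6 basement membrane chains and 1 of 22 others, and the median log2 fold change was -0.34, against -0.01 over all genes. At an unadjusted p under 0.05 the counts were 1 higher and 12 lower, among 3061 higher and 3166 lower of all 18299 genes tested. Scaled by library totals alone, 10 collagens fell, and all genes split into 1330 higher and 2556 lower, against 1754 and 1827. In 18 of all 44 members both Il1f9-/- libraries lay below both Il1f9+/+ ones, and in 3 above. The share of all genes without such overlap was not computed here either.

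Col18a1 had 72.5 and 50.5 CPM in Il1f9-/- colitis colon, against 152 and 211 in Il1f9+/+, a log2 fold change of -1.56 ± 0.24 (adjusted p = 0.00244). Col3a1 had 771 and 537 CPM, against 1199 and 1759, a log2 fold change of -1.18 ± 0.20 (adjusted p = 0.00267). Col4a1 had 257 and 179 CPM, against 448 and 627, a log2 fold change of -1.31 ± 0.24 (adjusted p = 0.00528). These 3 calls held without each library in turn, and both Il1f9-/- libraries lay below both Il1f9+/+ ones. Col1a1 had 258 and 197 CPM, against 376 and 565, a log2 fold change of -1.05 ± 0.20 (adjusted p = 0.00556), and its adjusted p was 0.0505 without Il1f9-/- replicate 2. Its partner chain Col1a2 had 315 and 242 CPM, against 375 and 555 (-0.74 ± 0.18, adjusted p = 0.0141). The other called genes were Col4a2 (-0.95 ± 0.22, adjusted p = 0.0161), Col5a1 (-0.77 ± 0.20, adjusted p = 0.0231), Col5a2 (-0.91 ± 0.23, adjusted p = 0.0239) and Col5a3 (-0.86 ± 0.26, adjusted p = 0.0391). Col1a2 and these 4 genes lost their call without Il1f9+/+ replicate 2 and without Il1f9-/- replicate 2, and Col5a3 also without Il1f9-/- replicate 1 (adjusted p up to 0.297). The number called lower was 4 without Il1f9+/+ replicate 2, 3 without Il1f9-/- replicate 2, and 12 and 8 without replicate 1 of each.

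**Figure D2:**
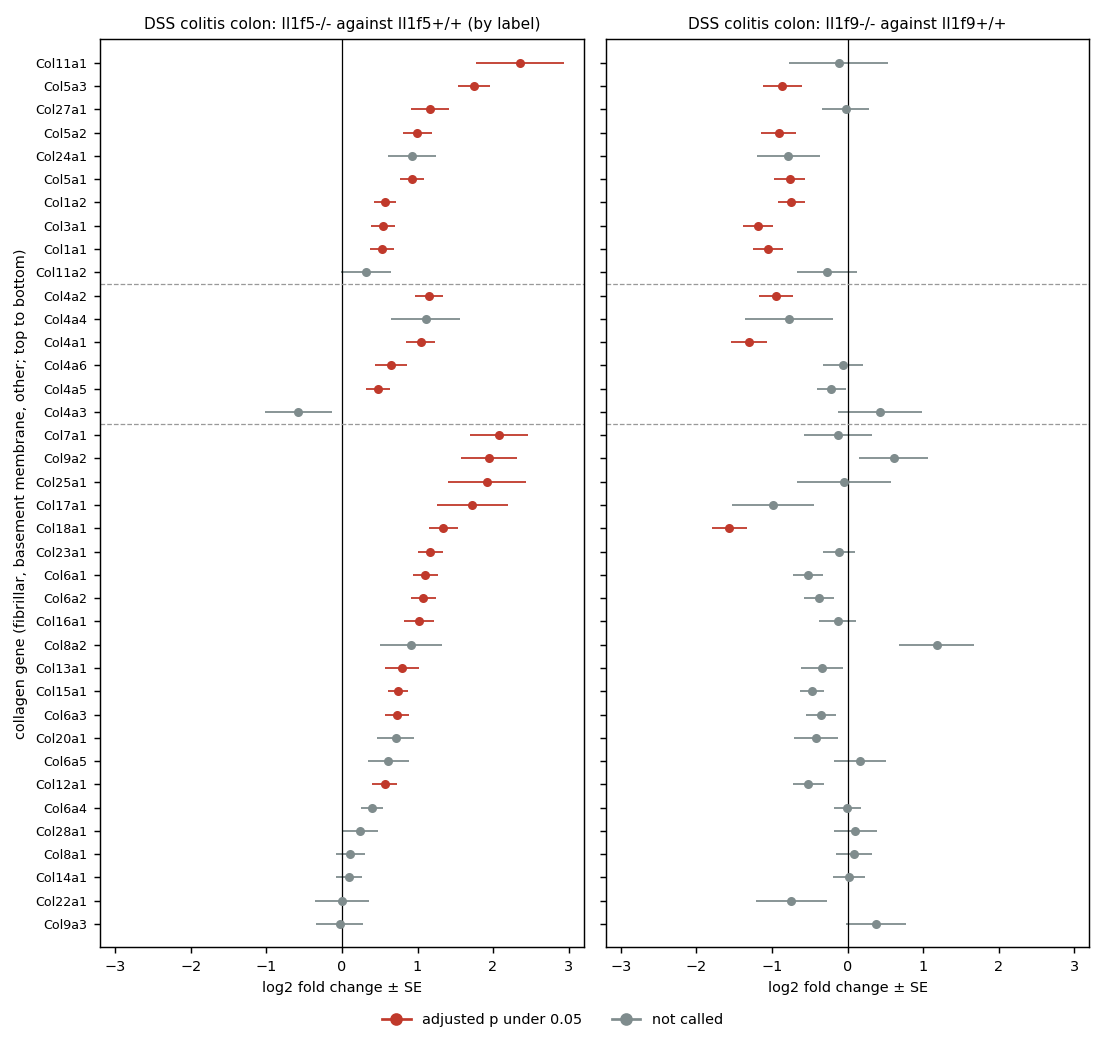
Log2 fold change ± standard error of each tested collagen in colitis colon, -/- against +/+, for the Il1f5 line by label (left) and the Il1f9 line (right), with fibrillar, basement membrane and other chains from top to bottom and red for an adjusted p under 0.05. The left panel has 25 red points, all right of 0, and the right panel 9, all left of 0.

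Type VI chains, called in the Il1f5 line, were not called in the Il1f9 line. Col6a1 had 158 and 130.5 CPM in Il1f9-/- colitis colon, against 169 and 243 in Il1f9+/+ (-0.52 ± 0.20, adjusted p = 0.0942), and Col6a2 and Col6a3 had log2 fold changes of -0.38 ± 0.20 and -0.35 ± 0.19. Col7a1 (-0.12 ± 0.45) and Col17a1 (-0.99 ± 0.54) were not called either. The other uncalled chains had log2 fold changes from -0.79 for Col24a1 to 1.18 for Col8a2.

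Collagen partner genes fell in part, where 9.98% of all genes fell. Of 21 folding and modification genes 6 fell and none rose, first by p the prolyl 4-hydroxylase P4ha1 (-0.68 ± 0.11), Colgalt1 (-0.53 ± 0.12), Plod3 (-0.55 ± 0.13) and the collagen chaperone Serpinh1 (-0.61 ± 0.15). Of 14 tested cleavage and cross-linking genes 5 fell and none rose, with the cross-linking oxidase Lox at -2.22 ± 0.36, Bmp1 at -0.81 ± 0.17, Adamts2 at -0.80 ± 0.18 and Loxl4 at -1.22 ± 0.32. Of 7 tested collagen-cleaving proteases 4 fell, Mmp2 (-0.83 ± 0.17), Mmp9 (-3.71 ± 0.70), Mmp8 (-6.70 ± 1.32) and Mmp13 (-3.83 ± 0.83), of which Mmp8 and Mmp9 are known from neutrophils. The receptors Itga2 (-0.94 ± 0.10) and Lair1 (-2.10 ± 0.35), a leukocyte receptor, fell among 11 tested. Of 16 other basement membrane genes 8 fell, with Nid2 at -1.34 ± 0.21, Lama1 at -1.60 ± 0.25, Sparc at -0.95 ± 0.15 and Lamb1 at -0.71 ± 0.17, and of 11 transforming growth factor beta genes 4 fell, Tgfbr2 (-0.73 ± 0.10), Tgfbr3 (-0.89 ± 0.26), Tgfbr1 (-0.43 ± 0.13) and Tgfb1 (-0.52 ± 0.17).

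Markers split by cell type here. Smooth muscle markers rose for 10 of 11, with sums of 4902 to 5509 CPM in Il1f9-/- colitis colon, against 1734 to 3026 in Il1f9+/+. Fibroblast markers fell for 4 of 12 and rose for 1 (521 to 694 CPM, against 752 to 936), endothelial markers fell for 7 of 11 (151 to 170.0, against 246 to 318), leukocyte markers fell for 6 of 8 (149 to 207, against 379.9 to 522), pericyte markers fell for 2 of 6 and gut epithelium markers rose for 4 of 11. The part of these cells in the collagen difference was not tested.

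The difference between the effects of the 2 lines was itself tested in colitis colon. The log2 fold change was larger in the Il1f5 line, by label, than in the Il1f9 line for 21 of 38 collagens and smaller for none, where 12.8% of all genes were called larger and 24.8% in either direction. This count rests on the direction of the Il1f5 labels. With these labels exchanged, an alternative added after seeing the data, 0 collagens were larger and 4 were smaller (Col7a1, Col8a2, Col9a2 and Col23a1), among 1783 larger and 1602 smaller of all genes, and the difference of Col3a1 was 0.64 ± 0.25 (adjusted p = 0.0993) and that of Col18a1 0.22 ± 0.30 (adjusted p = 0.638). By label, the 21 are 7 of 10 fibrillar, 2 of 6 basement membrane and 12 of 22 other chains. Col18a1 had the smallest p, with a difference of 2.90 ± 0.30 (adjusted p = 0.000656), and Col4a1 differed by 2.35 ± 0.31 (adjusted p = 0.00135) and Col5a3 by 2.61 ± 0.33 (adjusted p = 0.0012). The other called chains with the smallest p of each class had differences of 1.72 ± 0.26 for Col3a1, 1.69 ± 0.26 for Col5a1, 1.58 ± 0.26 for Col1a1, 2.10 ± 0.29 for Col4a2, 1.62 ± 0.26 for Col6a1, 1.21 ± 0.21 for Col15a1 and 1.45 ± 0.26 for Col6a2. Differences were 1.31 ± 0.23 for Col1a2, 1.08 ± 0.25 for Col6a3, 2.20 ± 0.59 for Col7a1 and 2.71 ± 0.72 for Col17a1, all called. The call of Col6a3 was lost without Il1f9-/- replicate 2, that of Col17a1 without either Il1f9-/- library or Il1f9+/+ replicate 2, and that of Col7a1 without replicate 2 of either Il1f9 group or replicate 1 of either Il1f5 group. Scaled by library totals alone, 23 collagens were called larger, and all genes split into 3247 larger and 1460 smaller, against 2346 and 2189. Of the 21 calls, 13 held without each of the 10 libraries in turn, those of Col1a1, Col1a2, Col3a1, Col5a1, Col5a2, Col5a3, Col4a1, Col4a2, Col15a1, Col18a1, Col23a1, Col6a1 and Col6a2. The count was 13 without Il1f9-/- replicate 2 and 14 without Il1f9+/+ replicate 2, and 16 to 25 without the others.

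The balance of chains within a collagen was taken as the ratio of read counts of 2 genes in the same library, which does not depend on library size. Col4a1 over Col4a2 was 1.24 and 1.26 in Il1f9-/- colitis colon, against 1.61 and 1.59 in Il1f9+/+, and 1.28 and 1.54 in Il1f9-/- tumours, against 1.93 and 1.84 in Il1f9+/+. In the Il1f5 line it was 1.31 ± 0.0539 in colitis colon labelled Il1f5-/-, against 1.41 ± 0.0581 for Il1f5+/+ (SD, n = 3 each). Col1a1 over Col1a2 was 0.820 and 0.816 in Il1f9-/- colitis colon, against 1.004 and 1.02 in Il1f9+/+. In tumours it was 0.675 and 0.743 in Il1f9-/-, against 1.08 and 1.003 in Il1f9+/+, and 1.22 and 1.19 in those labelled Il1f5-/-, against 1.07 and 0.933 in those labelled Il1f5+/+. The groups of the Il1f9 line overlapped in neither ratio in either tissue, while the type IV ratio in colitis labelled Il1f5-/- (up to 1.37) overlapped that of Il1f5+/+ (from 1.36). Col5a1 over Col5a2 was 0.321 to 0.874 over all tumours and 1.20 to 1.46 over all colitis libraries, with no overlap. Col3a1 over Col1a1 was 1.38 and 1.76 in tumours labelled Il1f5-/- and 7.71 and 6.02 in Il1f9-/- tumours, against 2.34 to 4.39 in the +/+ tumours. These ratios were not tested, and their level depends on the lengths of both genes.

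**Figure D3:**
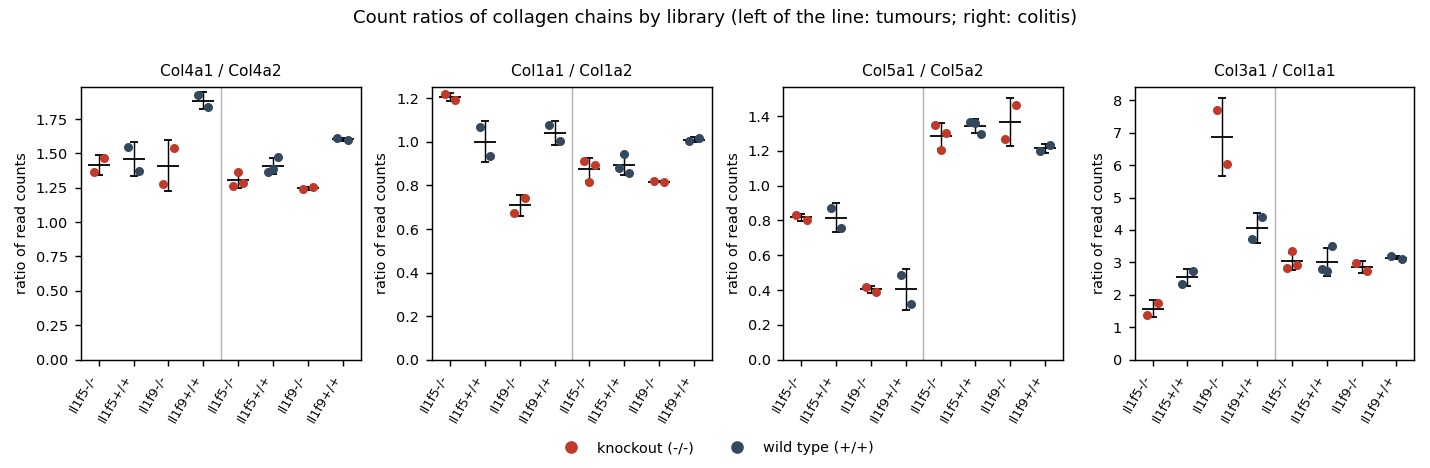
Ratio of read counts of 2 collagen genes in each library for 4 gene pairs, on linear axes from 0, with tumours left of the grey line, colitis colon right of it and -/- left of +/+; points are libraries, bars are mean ± SD. For Col5a1 over Col5a2 each tumour library, at most 0.874, lies below each colitis library, at least 1.20.

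The share of each class was compared in the same groups. Fibrillar chains made up 46.3% ± 3.59 of the collagen level per kilobase in colitis colon labelled Il1f5-/-, against 53.5% ± 2.15 for Il1f5+/+ (SD, n = 3 each), basement membrane chains 22.8% ± 1.64, against 19.4% ± 1.89, and other chains 30.8% ± 1.95, against 27.1% ± 1.91. The fibrillar range, 43.0% to 50.2%, lay below that of Il1f5+/+, 52.2% to 56.0%. In Il1f9-/- colitis colon the fibrillar share was 48.4% and 49.7%, against 52.8% and 53.9% in Il1f9+/+, the basement membrane share 18.9% and 20.1%, against 22.2% and 23.1%, and the share of other chains 30.2% and 32.7%, against 23.9% and 24.2%. The fibrillar share was lower in the -/- libraries of both lines, for the Il1f5 line by label only. In tumours the fibrillar share was 38.8% and 38.6% in those labelled Il1f5-/-, against 48.1% and 46.7% in those labelled Il1f5+/+, and 45.6% and 58.0% in Il1f9-/-, against 47.3% and 43.4% in Il1f9+/+, where the groups overlapped. The shares were not tested.

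The 2 groups of +/+ colitis libraries differed from each other. Of the 38 collagens, 8 were higher in Il1f9+/+ than in libraries labelled Il1f5+/+ and none was lower, where 3.25% of all genes were higher and 1.68% lower. Col5a3 (1.34 ± 0.23, adjusted p = 0.0141) and Col4a1 (1.06 ± 0.21, adjusted p = 0.0242) led, and the others were 0.82 ± 0.18 for Col5a1, 0.77 ± 0.18 for Col3a1, 0.95 ± 0.21 for Col5a2, 0.88 ± 0.20 for Col4a2, 0.89 ± 0.21 for Col18a1 and 0.70 ± 0.18 for Col1a1. Not called were 0.53 ± 0.16 for Col1a2, 0.59 ± 0.18 for Col6a1, 0.56 ± 0.18 for Col6a2, 0.61 ± 0.18 for Col6a3, 1.18 ± 0.42 for Col7a1 and 1.65 ± 0.51 for Col17a1. The count was 0 without replicate 1 or replicate 2 labelled Il1f5+/+ and 3 without replicate 3 labelled Il1f5+/+. Of all genes 117, 118 and 510 were called higher in these fits, against 594 with all libraries. Leaving out an Il1f9+/+ library leaves 1 in that group. With libraries left out, log2 fold changes ran from 0.37 to 0.96 for Col1a1 and from 0.84 to 1.69 for Col5a3. With the Il1f5 labels exchanged, 0 were higher and 2 lower (Col9a2 and Col23a1), among 546 higher and 338 lower of all genes. Leukocyte markers summed to 379.9 to 522 CPM in Il1f9+/+, against 217 to 244 in libraries labelled Il1f5+/+, endothelial markers to 246 to 318, against 171 to 184, and fibroblast markers to 752 to 936, against 558 to 621, and their part was not tested. This comparison shares its libraries with both -/- comparisons, and Il1f9+/+ replicate 2 had the highest Col3a1 level of the 18 libraries, 1759 CPM.

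In tumours no collagen was called in either line. Between tumours labelled Il1f5-/- and Il1f5+/+, edgeR called 0 of 36 tested collagens higher and 0 lower, where 0.0112% of all genes were higher and 0.0168% lower, 5 genes in all. At an unadjusted p under 0.05 there were 5 higher and 3 lower collagens, among 2383 higher and 1723 lower of all 17859 genes tested. DESeq2 called 2 collagens higher and 0 lower, among 705 higher and 574 lower of all genes, and gave no adjusted p for 12 of the 36 collagens. Each library labelled Il1f5-/- lay above each labelled Il1f5+/+ for 10 of all 44 members and below for 15, and the share over all genes was not computed. Between Il1f9-/- and Il1f9+/+ tumours the numbers called were likewise 0 and 0 (0.00560% and 0.0112% of all genes). At an unadjusted p under 0.05, 2 collagens were higher and 3 lower, among 741 higher and 812 lower of all genes. DESeq2 called 1 collagen lower, among 82 lower of all genes, and gave no adjusted p for 9 of the 36 collagens. For the difference between the effects of the 2 lines in tumours the numbers called were 0 and 0 (0.0336% and 0.0448% of all genes). At an unadjusted p under 0.05, 5 collagens were higher and 4 lower, among 1769 higher and 1307 lower of all genes. DESeq2 called 2 collagens higher, among 285 higher of all genes, and gave no adjusted p for 10 of the 36 collagens.

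The type IX chains Col9a2 and Col9a3, which coat cartilage fibrils, had the smallest adjusted p. Col9a2 had 35.7 and 33.3 CPM in tumours labelled Il1f5-/-, against 11.1 and 10.0 in those labelled Il1f5+/+, a log2 fold change of 1.70 ± 0.24 (adjusted p = 0.0616). Col9a3 had 165 and 78.3 CPM, against 27.2 and 13.9, a log2 fold change of 2.55 ± 0.43 (adjusted p = 0.0763). The groups did not overlap, though the 2 tumours labelled Il1f5-/- differed by a wide margin in Col9a3. Col2a1, the type II chain of cartilage (2.43 ± 0.65, adjusted p = 0.0885), and Col9a1 (1.73 ± 0.58, adjusted p = 0.13) had the same sign. Other chains known from cartilage did not move with them, as Col27a1 had the opposite sign and Col11a2 lay near no change. Col9a1 had 39 and 68 reads in tumours labelled Il1f5-/-, against 21 and 12 in those labelled Il1f5+/+, and Col2a1 had 24 and 40, against 9 and 3, without overlap. Summed cartilage and bone markers were 2.89 to 5.51 CPM, against 1.39 to 1.60, and the cartilage marker Matn1 was at 0 in all tumours. The main chains of fibrils and basement membrane had log2 fold changes of 0.21 ± 0.47 for Col1a1, -0.06 ± 0.39 for Col1a2, -0.49 ± 0.30 for Col3a1, 0.24 ± 0.19 for Col4a1 and 0.30 ± 0.15 for Col4a2, and the other chains -0.53 ± 0.24 for Col6a1, -0.56 ± 0.28 for Col6a2, -0.75 ± 0.28 for Col6a3, -0.99 ± 0.59 for Col7a1, -1.13 ± 0.67 for Col17a1 and 0.02 ± 0.25 for Col18a1. None was called (adjusted p from 0.168 to 0.965).

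Between Il1f9-/- and Il1f9+/+ tumours, Col15a1 had the smallest p, with 3.25 and 4.07 CPM, against 6.87 and 13.5, and a log2 fold change of -1.49 ± 0.32 (adjusted p = 0.348). Col3a1 had 378 and 799.6 CPM in Il1f9-/- tumours, against 415 and 342 in Il1f9+/+ (0.61 ± 0.30, adjusted p = 0.628), and Col1a1 had 48.9 and 133 CPM, against 111 and 77.9 (-0.09 ± 0.47, adjusted p = 0.974). For Col1a1 the Il1f9-/- values lay on either side of both Il1f9+/+ values. Log2 fold changes were 0.45 ± 0.40 for Col1a2, -0.25 ± 0.19 for Col4a1, 0.16 ± 0.15 for Col4a2, 0.29 ± 0.25 for Col6a1, 0.33 ± 0.28 for Col6a2, 0.04 ± 0.29 for Col6a3, -0.61 ± 0.60 for Col7a1, -0.16 ± 0.70 for Col17a1 and -0.22 ± 0.25 for Col18a1, with none called. Replicate 2 of the Il1f9-/- tumours stood apart, with summed smooth muscle markers of 908 CPM and fibroblast markers of 1077 CPM, against 100.1 and 294 CPM in replicate 1 of the same group and 120.5 to 201 and 466 to 571 CPM in Il1f9+/+ tumours. Its part in the spread was not tested. Without it, 1 collagen was called lower and none higher. For the difference between the lines, 1 was called higher and 4 lower without Il1f9-/- replicate 1, and 1 higher without replicate 2.

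The +/+ tumours of the 2 lines, counted in separate deposited tables, differed in 8 of 36 collagens. In Il1f9+/+ tumours 7 were lower and 1 was higher than in tumours labelled Il1f5+/+, where 11.7% of all genes were lower and 16.8% higher. The lower ones were Col6a5 (-4.32 ± 0.65, adjusted p = 0.00256) and Col6a4 (-1.22 ± 0.25, adjusted p = 0.00878), and, with log2 fold changes alone, -1.90 ± 0.46 for Col24a1, -1.54 ± 0.49 for Col20a1, -1.33 ± 0.41 for Col5a1, -0.90 ± 0.30 for Col27a1 and -0.53 ± 0.15 for Col4a2. Col25a1 (2.49 ± 0.73, adjusted p = 0.0327) was higher. Not called were -1.02 ± 0.47 for Col1a1, -1.08 ± 0.40 for Col1a2, -0.35 ± 0.30 for Col3a1, -0.18 ± 0.19 for Col4a1, -0.74 ± 0.25 for Col6a1, -0.74 ± 0.28 for Col6a2, -0.81 ± 0.29 for Col6a3, -0.76 ± 0.58 for Col7a1, -1.84 ± 0.69 for Col17a1 and -0.23 ± 0.25 for Col18a1. Col4a2 had 95.6 and 91.0 CPM in Il1f9+/+ tumours, against 149 and 124 in tumours labelled Il1f5+/+, with no overlap. The number lower was 1 and 2 without replicate 1 and replicate 2 labelled Il1f5+/+, and 4 and 3 without Il1f9+/+ replicate 1 and replicate 2, of which 2 each are not among the 7. The calls of Col4a2, Col5a1, Col20a1, Col24a1, Col27a1 and Col25a1 were lost in all 4 cases, that of Col6a4 in 2 and that of Col6a5 in none. Smooth muscle markers summed to 120.5 to 201 CPM in Il1f9+/+ tumours, against 304 to 306 in those labelled Il1f5+/+, pericyte markers to 49.8 to 56.8, against 98.1 to 98.8, and endothelial markers to 81.4 to 115, against 117 to 128. Other sums lay the other way, with fibroblast markers at 466 to 571 CPM, against 403 to 437, gut epithelium at 20060 to 23902, against 11796 to 13672, leukocyte at 344 to 505, against 188 to 238, enteric neuron and glia at 97.3 to 109, against 36.1 to 44.3, and mesothelial at 80.6 to 107, against 17.8 to 21.3. The part of these cells was not tested. With the Il1f5 labels exchanged, 6 were lower and 0 higher, among 2047 lower and 2761 higher of all genes. These were Col4a2, Col6a5, Col9a2, Col9a3, Col14a1 and Col16a1, of which only Col4a2 and Col6a5 are among the 7. Scaled by library totals alone, 17 were lower and none higher, and for all genes the split turned to 1174 higher and 4830 lower, against 2999 and 2097.

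Between +/+ tumours and +/+ colitis colon, averaged over both lines, most collagens were lower in tumours. Of 40 tested collagens 26 fell, 7 rose and 7 were not called, where 31.1% of all 19514 genes tested fell and 30.1% rose. Fibrillar chains fell for 7 of 11 and rose for 2, basement membrane chains fell for 4 of 6, and other chains fell for 15 of 23 and rose for 5. The median log2 fold change was -1.15, against -0.03 over all genes. Tissue, experiment and deposited table cannot be told apart in this comparison. Without each of the 9 libraries in turn, 22 to 26 were called lower and 7 higher. Over the 34 collagens that passed the filter on low counts in each tissue on its own, 24 fell and 5 rose. With the Il1f5 labels exchanged, 30 fell and 6 rose, among 6574 lower and 6558 higher of all genes. Col7a1 was then not called (0.61 ± 0.38, adjusted p = 0.176). Col18a1 (-0.88 ± 0.18, adjusted p = 0.000727), Col5a2, Col5a3 and Col4a4, not called by label, were then lower.

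Col3a1 had levels from 342 to 544 CPM in the 4 +/+ tumours, against 789 to 1759 in the 5 +/+ colitis libraries, a log2 fold change of -1.40 ± 0.19 (adjusted p = 1.89e-05). Col1a2 had 77.7 to 218 CPM, against 306 to 555 (-1.55 ± 0.23, adjusted p = 5.47e-05), Col1a1 77.9 to 232, against 262 to 565 (-1.45 ± 0.27, adjusted p = 0.000437). Tumours lay below colitis colon in each of these genes without overlap. Col5a1 fell with a log2 fold change of -1.65 ± 0.25 (adjusted p = 7.5e-05), while Col5a2 (-0.50 ± 0.24, adjusted p = 0.0911) and Col5a3 (0.19 ± 0.32, adjusted p = 0.626) were not called. The network chain Col8a1, of vessel walls, fell with one of -2.90 ± 0.30 (adjusted p = 6.38e-07). The type VI chains Col6a1 (-1.60 ± 0.17, adjusted p = 1.16e-06), Col6a2 (-1.49 ± 0.19, adjusted p = 9.24e-06) and Col6a3 (-1.17 ± 0.18, adjusted p = 7.92e-05) fell.

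The 4 type IV chains that fell had log2 fold changes of unlike size. Col4a6 had 0.721 and 0.300 CPM in tumours labelled Il1f5+/+ and 0.123 and 0.0573 in Il1f9+/+ tumours, against 8.92, 5.36 and 6.49 in colitis colon labelled Il1f5+/+ and 6.24 and 8.26 in Il1f9+/+ colitis colon, a log2 fold change of -4.99 ± 0.42 (adjusted p = 5.7e-08). Log2 fold changes were -2.40 ± 0.21 (adjusted p = 9.05e-08) for Col4a5, -1.13 ± 0.14 (adjusted p = 3.73e-06) for Col4a2 and -0.99 ± 0.16 (adjusted p = 6.53e-05) for Col4a1, all called. Over all libraries the count ratio of Col4a6 to Col4a2 averaged 0.00267 ± 0.00209 in tumours and 0.0322 ± 0.0114 in colitis colon (SD, n = 8 and 10), with tumours at most 0.00656 and colitis libraries at least 0.0210. Col18a1 (-0.23 ± 0.18, adjusted p = 0.294) was not called, and its levels of 141 and 107 and 118 and 91.3 CPM in +/+ tumours overlapped those of +/+ colitis colon.

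The 7 chains that were higher in tumours, by label, are known from cartilage or from the base of stratified epithelium. Col9a3 had 27.2 and 13.9 CPM in tumours labelled Il1f5+/+ and 12.3 and 16.7 in Il1f9+/+ tumours, against 0.839, 1.20 and 0.879 and 0.755 and 0.688 in the matching colitis colon, a log2 fold change of 4.36 ± 0.28 (adjusted p = 7.59e-09). Col9a2 rose by 3.75 ± 0.25 (adjusted p = 5.48e-09). Col9a1 had 21 and 12 reads in tumours labelled Il1f5+/+ and 11 and 16 in Il1f9+/+ tumours, against 2, 0 and 7 and 1 and 1. Col9a1 and Col2a1 passed the filter only through the tumours, so their place among the 7 is no support. Col9a2 and Col9a3 were higher in each +/+ tumour than in each +/+ colitis library. The type XI chain Col11a2 rose by 1.02 ± 0.27 (adjusted p = 0.00354). The other type XI chain, Col11a1, and the fibrillar chain Col27a1, also known from cartilage, were called lower. Col27a1 had log2 fold changes from -1.15 to -0.69 with libraries left out, and Col11a1 passed the filter only through colitis colon. Col2a1 had 47 reads in the 4 +/+ tumours, against 1 in the 5 +/+ colitis libraries, a ratio per read sequenced of 62.9 (exact 95% interval 10.8 to 2537, which covers counting error only). Of 3 tested cartilage and bone markers none rose and 1 fell.

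Col17a1 and Col7a1 join basal epithelial cells to the matrix. Col17a1 had 11.3 and 20.6 CPM in tumours labelled Il1f5+/+ and 2.70 and 6.13 in Il1f9+/+ tumours, against 0.315, 0.120 and 0.167 and 0.453 and 0.836 in the matching colitis colon, a log2 fold change of 4.51 ± 0.45 (adjusted p = 4.61e-07). Col7a1 had 11.3 and 19.9 and 8.46 and 9.68 CPM, against 1.36, 1.87 and 2.13 and 2.26 and 5.85, a log2 fold change of 2.14 ± 0.40 (adjusted p = 0.000344). Neither gene overlapped between the tissues. The epithelial laminin chains Lama3 and Lamb3 were higher in tumours too, with log2 fold changes of 2.22 ± 0.15 and 1.16 ± 0.09, while the muscle laminin chain Lama2 was lower (-3.06 ± 0.27). Of the 16 other basement membrane genes 5 rose and 8 fell, where 30.1% of all genes rose and 31.1% fell.

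**Figure D4:**
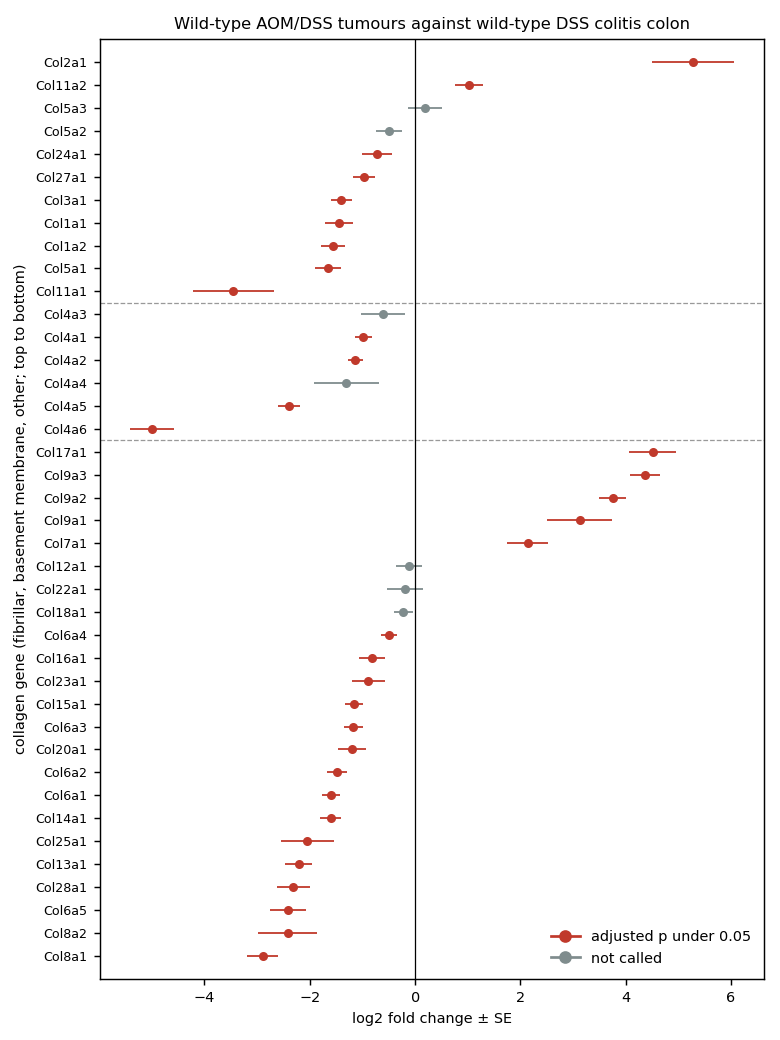
Log2 fold change ± standard error of each tested collagen, +/+ tumours against +/+ colitis colon averaged over both lines, with fibrillar, basement membrane and other chains from top to bottom and red for an adjusted p under 0.05. Of the red points 26 lie left of 0 and 7 right of it; the values of Col2a1 and Col11a1 rest on few reads and depend on the prior count.

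Markers differed widely between the tissues. Smooth muscle markers fell for 11 of 11 (sums of 100.1 to 908 CPM over all tumours, against 1734 to 5550.1 over all colitis libraries), pericyte markers for 6 of 6, adipocyte markers for 6 of 6, fibroblast markers for 9 of 12, endothelial markers for 7 of 11 and enteric neuron and glia markers for 8 of 10, with 2 higher. The adipocyte marker Lep was at 0 in all tumours. Stratified squamous epithelium markers rose for 6 of 8 (67.6 to 554 CPM, against 5.88 to 11.3). The part of these cells in the collagen differences was not tested.

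Collagen partner genes were mixed in the same comparison, where 31.1% of all genes fell and 30.1% rose. Of 21 folding and modification genes 14 fell and 4 rose, first by p Creb3l1 (-2.13 ± 0.14), Mia3, which loads collagen for export (-1.05 ± 0.09), P3h2 (-2.98 ± 0.32) and Colgalt1 (0.89 ± 0.10). Of 14 tested cleavage and cross-linking genes 10 fell and none rose, among them Mep1a (-3.10 ± 0.33), Adamts2 (-1.73 ± 0.27), Pcolce (-1.15 ± 0.19) and Loxl1 (-1.78 ± 0.29). Of 7 tested collagen-cleaving proteases 3 rose, Mmp14 (0.98 ± 0.12), Mmp9 (1.37 ± 0.34) and Mmp13 (1.61 ± 0.57), and Fap (-2.13 ± 0.30) and Mmp2 (-0.99 ± 0.21) fell. Among 11 tested receptors 5 fell and 2 rose, with the mesenchymal receptor Ddr2 at -3.23 ± 0.25, Mrc2 at -1.47 ± 0.19, Itga1 at -1.27 ± 0.16 and the epithelial receptor Ddr1 at 0.69 ± 0.10. Of 11 tested transforming growth factor beta genes 5 fell and 3 rose, with Tgfbr3 at -4.23 ± 0.28, Tgfb1 at 0.66 ± 0.12, Ltbp4 at -0.56 ± 0.11 and Ltbp1 at -1.01 ± 0.20.

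The same comparison was made in the -/- libraries. The median log2 fold change of the 11 fibrillar chains was -1.47 in the Il1f5-/- libraries, by label, and -0.15 in the Il1f9-/- ones, beside -0.96 in the +/+ ones. Tumours labelled Il1f5-/- had 28 collagens lower and 6 higher than colitis colon labelled Il1f5-/-, of 40 tested, where 27.3% of all genes were lower and 29.0% higher. Col9a3 had 165 and 78.3 CPM in those tumours, against 0.954, 0.731 and 1.16 in that colitis colon, a log2 fold change of 7.0 ± 0.37 (adjusted p = 3.04e-09). Col9a2 rose by 3.56 ± 0.30. The lower chains with the smallest p of each class were -1.86 ± 0.27 for Col3a1, -1.86 ± 0.29 for Col27a1, -3.49 ± 0.31 for Col4a5, -4.66 ± 0.51 for Col4a6, -1.26 ± 0.19 for Col4a2, -1.15 ± 0.22 for Col4a1, -2.55 ± 0.24 for Col6a1 and -2.45 ± 0.27 for Col6a2, and the other chains were -0.88 ± 0.36 for Col1a1, -1.35 ± 0.31 for Col1a2, -1.91 ± 0.26 for Col6a3, 0.05 ± 0.51 for Col7a1, 3.42 ± 0.53 for Col17a1 and -0.96 ± 0.25 for Col18a1, all called but Col7a1. The call of Col1a1 (adjusted p = 0.0496) was lost without each of the 5 libraries in turn, and that of Col18a1 without tumour replicate 2 (adjusted p = 0.066). Col2a1 had 24 and 40 reads, against 2, 3 and 1, and Col11a1 had 2 and 0, against 62, 60 and 12. Each passed the filter only through the tissue in which it was higher. Over the 34 collagens that passed in each tissue, 25 were lower and 4 higher.

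Il1f9-/- tumours had 22 lower and 5 higher than Il1f9-/- colitis colon, or 20 and 3 over those 34, where 25.3% of all genes were lower and 26.2% higher, and Col9a3 had 8.37 and 10.4 CPM, against 0.828 and 1.04 (3.31 ± 0.43, adjusted p = 1.75e-05). Without Il1f9-/- tumour replicate 1 the number higher was 9, and it was 4 or 5 without each other library. The lower chains with the smallest p of each class were -2.61 ± 0.33 for Col27a1, -1.76 ± 0.36 for Col5a1, -4.24 ± 0.55 for Col4a6, -1.76 ± 0.29 for Col4a5, -0.72 ± 0.20 for Col4a2, -2.68 ± 0.26 for Col15a1, -3.68 ± 0.44 for Col13a1 and -3.02 ± 0.43 for Col8a1, and -1.33 ± 0.39 for Col1a1, -1.15 ± 0.33 for Col1a2, -1.44 ± 0.24 for Col6a1, -1.41 ± 0.27 for Col6a2, -1.47 ± 0.27 for Col6a3 and 3.61 ± 0.69 for Col17a1 were called too. Without colitis replicate 1 the calls of Col1a1, Col1a2 and Col4a2 were lost, and without tumour replicate 1 those of Col1a1 and Col1a2 (adjusted p up to 0.138). Col3a1 (-0.15 ± 0.28, adjusted p = 0.671), Col4a1 (-0.54 ± 0.23, adjusted p = 0.0626), Col18a1 (0.57 ± 0.27, adjusted p = 0.0914) and Col7a1 (0.70 ± 0.58, adjusted p = 0.339) were not called. Col2a1 had 10 and 6 reads in Il1f9-/- tumours, against 0 and 0 in Il1f9-/- colitis colon, and Col11a1 had 0 and 2, against 23 and 19.

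**Figure D5:**
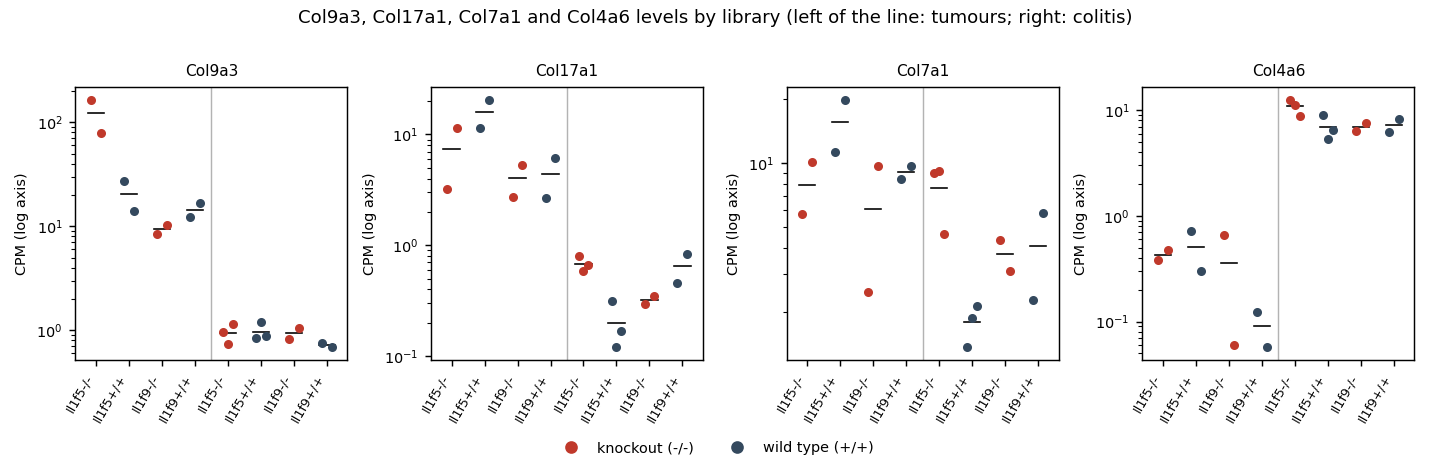
Level of Col9a3, Col17a1, Col7a1 and Col4a6 in each library, in CPM on a log axis, with tumours left of the grey line, colitis colon right of it and -/- left of +/+; points are libraries and bars are group means. Col9a3 is highest in the 2 tumours labelled Il1f5-/-, at 165 and 78.3 CPM, and at most 1.20 CPM in colitis colon, while Col4a6 is higher in each colitis library than in each tumour.

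Whether the effect of a line's -/- genotype differed between tissues was tested directly, with larger and smaller referring to the signed log2 fold change. For the Il1f5 line, by label, the effect was smaller in tumours than in colitis colon for 12 of 40 collagens and larger for 1, where 7.23% of all genes were called smaller and 10.8% larger. The smaller ones were Col6a1 (-1.62 ± 0.31, adjusted p = 0.00522), Col6a2 (-1.63 ± 0.34, adjusted p = 0.00834), Col27a1 (-1.69 ± 0.39, adjusted p = 0.0102), Col6a3 (-1.46 ± 0.35, adjusted p = 0.0128), Col4a2 (-0.84 ± 0.26, adjusted p = 0.0356) and, with differences alone, -2.11 ± 0.62 for Col5a3, -1.81 ± 0.50 for Col24a1, -0.98 ± 0.28 for Col6a4, -2.08 ± 0.53 for Col6a5, -3.06 ± 0.75 for Col7a1, -2.85 ± 0.85 for Col17a1 and -1.30 ± 0.35 for Col18a1, and the larger one was Col9a3 (2.60 ± 0.53, adjusted p = 0.00702). The number smaller was 2 without tumour replicate 1 labelled Il1f5-/-, 6 without tumour replicate 1 labelled Il1f5+/+, 7 without colitis replicate 2 labelled Il1f5+/+ and 7 without colitis replicate 1 labelled Il1f5-/-, and 8 to 14 without the others. The calls of Col6a1 and Col9a3 held in all 10 cases. Not called were -0.31 ± 0.49 for Col1a1, -0.61 ± 0.42 for Col1a2, -1.02 ± 0.36 for Col3a1 and -0.79 ± 0.30 for Col4a1. Scaled by library totals alone, 17 were smaller and 1 larger, and all genes split into 1003 larger and 2366 smaller, against 2113 and 1411.

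For the Il1f9 line the effect was larger in tumours for 2 of 40 collagens and smaller for none, where 1.65% of all genes were larger and 0.820% smaller. These were Col3a1 (1.81 ± 0.39, adjusted p = 0.0326) and Col4a2 (1.13 ± 0.29, adjusted p = 0.0497), whose log2 fold changes were 0.61 ± 0.30 and 0.16 ± 0.15 in tumours, not called, and -1.18 ± 0.20 and -0.95 ± 0.22 in colitis colon. The count was 0 without colitis replicate 2 of Il1f9+/+ or of Il1f9-/- and without either Il1f9+/+ tumour, 1 without Il1f9-/- tumour replicate 2, and 9 without Il1f9-/- tumour replicate 1. At an unadjusted p under 0.05 there were 10 larger and 2 smaller, among 2041 larger and 1738 smaller of all 19514 genes tested. Not called were 0.99 ± 0.54 for Col1a1, 1.22 ± 0.46 for Col1a2, 1.07 ± 0.33 for Col4a1, 0.83 ± 0.34 for Col6a1, 0.73 ± 0.38 for Col6a2, 0.42 ± 0.38 for Col6a3, -0.46 ± 0.82 for Col7a1, 0.85 ± 0.94 for Col17a1 and 1.37 ± 0.38 for Col18a1.

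Of the 44 members, 4 were tested in no fit, Col6a6, Col10a1, Col19a1 and Col26a1. Col2a1 and Col9a1 were tested only where tumours entered, and Col4a3, Col4a4, Col8a2 and Col11a1 only where colitis libraries did, so each passed the filter through the tissue in which it was higher. Just above the filter in colitis colon were Col17a1 with 89 reads over 10 libraries and Col4a3 with 117, and just below it Col6a6 with 42, Col26a1 with 40 and Col9a1 with 34. In tumours Col4a6 with 53 reads over 8 libraries and Col25a1 with 63 passed, and Col4a3 with 52, Col8a2 with 46 and Col4a4 with 35 did not. The type X chain Col10a1, of growth plate cartilage, had 17 reads in 1 Il1f9+/+ tumour and at most 4 in each other library.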

How the data were processed

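Gene counts were deposited in 3 tables, 1 for colitis and 1 for tumours of each line, joined here by gene ID. Per the submitters' processing notes, the tools were Trim Galore 0.6.4, HISAT2 2.0.5 and featureCounts 2.0.0, and no source at hand names the genome build, though all 44 collagens have the coordinates of GENCODE M21 on GRCm38. Per the labels' protocols the libraries do not keep strand, so sense and antisense reads cannot be told apart. The deposited counts are whole reads per gene, not normalized, and 18 per-sample columns of the authors' FPKM values were not used.

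Levels are CPM, counts over the library total times its TMM factor, and per kilobase they use the deposited gene length. Tests were edgeR 4.0.16 quasi-likelihood fits (robust) in R 4.3.3 with group means, TMM scaling and filterByExpr (minimum count 10), on the 10 colitis libraries, the 8 tumour libraries or all 18 for comparisons across tissues. A call is a Benjamini-Hochberg adjusted p under 0.05 over all genes tested, and values after ± beside log2 fold changes are standard errors. Effects are differences of log2 fold changes in the same fit, and an effect called larger or smaller is so by sign, not by size. The procedure was tested on simulated counts. Alternatives were DESeq2 1.42.0, its size factors, library totals alone, no filter, the groups compared alone, a fold threshold, a replicate block, leaving out each library and, added after seeing the data, exchanged Il1f5 labels. Named in each comparison were the called collagens if 12 or fewer, otherwise the 4 with the smallest p in each class, and 11 main chains called or not, and up to 4 called genes of each partner list. One partner gene is not reported here. The members and lists were chosen with earlier results of these data known. Intervals cover counting error only.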

Additional observations from a re-analysis of the deposited data

Results flagged for a closer look

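A test of the difference between effects drew attention to 4 counts. Larger and smaller refer here to the signed log2 fold change, not to its size. In colitis colon the -/- effect, by label for Il1f5, was larger in the Il1f5 line than in the Il1f9 line for 21 collagens, and for 0 with the Il1f5 labels exchanged. By label, 12.8% of all genes were called larger. For the Il1f5 line the effect was smaller in tumours than in colitis colon for 12 collagens and larger for 1, Col9a3. Of all genes 7.23% were called smaller and 10.8% larger there. For the Il1f9 line, where 1.65% of all genes were called larger, the signed effect was larger in tumours for 2 collagens, Col3a1 and Col4a2. Both were called lower in Il1f9-/- colitis colon and not called in tumours. Across tissues, tissue, experiment and table cannot be told apart.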

How the results depend on the processing

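Each library left out in turn gave 15 to 27 collagens higher and 0 lower for the Il1f5 line in colitis colon, 3 to 12 lower and 0 to 1 higher for the Il1f9 line, 13 to 25 larger for the difference between lines and 0 to 16 higher between +/+ colitis groups. In tumours it gave 0 for the Il1f5 line, 0 to 1 lower and 0 higher for the Il1f9 line, 0 to 1 higher and 0 to 4 lower for the difference between lines, and 0 higher and 1 to 4 lower between +/+ groups. Between tissues it gave 7 higher and 22 to 26 lower in +/+, 6 higher and 20 to 27 lower for Il1f5-/-, and 4 to 9 higher and 18 to 28 lower for Il1f9-/-. For the effect in tumours minus that in colitis it gave 1 larger and 2 to 14 smaller for the Il1f5 line, and 0 to 9 larger and 0 to 1 smaller for the Il1f9 line.

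Without each Il1f5 colitis library in turn, 1108 to 3049 of all genes were called higher and 826 to 2537 lower for the Il1f5 line in colitis. For the difference between lines in colitis these fits called 1523 to 3141 of all genes larger and 1323 to 2703 smaller. The ranges above, but for the first, include fits that leave 1 library in a group, which are not set beside all genes. A fold of at least 1 on the log2 scale beside the adjusted p left 14 called collagens for the Il1f5 line in colitis, 4 lower for the Il1f9 line and 2 higher between +/+ colitis groups. Of all genes it left 1103 higher and 268 lower, 844 lower, and 285 higher in these comparisons. With no filter, tumours gave 5 higher and 3 lower for the Il1f5 line, 1 higher and 2 lower for the Il1f9 line, 5 higher and 2 lower for the difference between lines, and 2 higher and 16 lower between +/+ groups. Calls over all genes changed too, to 1226 higher and 717 lower, 462 and 329, 730 and 632, and 3663 and 2686, in the same order. With no filter the effect in tumours minus that in colitis was smaller for 22 in the Il1f5 line, and larger for 12 and smaller for 1 in the Il1f9 line. Of all genes 1880 were then smaller in the Il1f5 line, and 1192 larger and 631 smaller in the Il1f9 line. The DESeq2 Wald test gave 13 higher between +/+ colitis groups, and in tumours 2 higher for the Il1f5 line, 1 lower for the Il1f9 line, 2 higher for the difference between lines, and 0 higher and 15 lower between +/+ groups. Of all genes it called 1104 higher, 705 higher, 82 lower, 285 higher, and 2793 higher and 2251 lower, in the same order. It gave no adjusted p for 4, 12, 9, 10 and 0 of the collagens in these comparisons. It gave 4 larger effects in tumours for the Il1f9 line (692 of all genes), where DESeq2 size factors in edgeR gave 1 (292 of all genes). Fits of only the groups compared gave 5 lower for the Il1f9 line in colitis, 2 higher and 2 lower for the Il1f5 line in tumours, 15 lower between +/+ tumours, 3 higher between Il1f9-/- tumours and colitis, 2 larger and 22 smaller for the Il1f5 effect across tissues and 0 for the Il1f9 one. Of all genes they called 1353 lower, 450 higher and 576 lower, 3245 lower, 3276 higher, 2520 larger and 2044 smaller, and 0 larger and 1 smaller, in the same order. These fits use fewer samples for the spread, and the cause was not tested otherwise.

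With the Il1f5 labels exchanged, 0 collagens were larger and 4 smaller for the difference between lines in colitis, 0 were higher and 2 lower between +/+ colitis groups, and 0 were higher between +/+ tumours, since other libraries then enter.

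Scaling by library totals alone gave 0 higher and 17 lower between +/+ tumours. It moved the median log2 fold change of all genes to -0.39 there, to -0.12 for the Il1f9 line and 0.20 for the difference between lines in colitis, to -0.16 for the Il1f5 line and for the difference between lines in tumours, to -0.14 between Il1f9-/- tissues, and to -0.27 and 0.13 for the Il1f5 and Il1f9 effects across tissues. For uncalled genes of the Il1f9 line in colitis, the log2 fold change ran from -0.68 to 0.062 for Col6a3 and from -0.65 to 0.71 for Col7a1 with libraries left out, the positive values of both without Il1f9+/+ replicate 2 and that of Col7a1 also without Il1f9-/- replicate 2 (0.093). Class shares computed from CPM in place of CPM per kilobase moved by more than 1 SD in 21 of 24 cases.

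The labels do not say whether the replicate numbers pair the samples. Deviations of equal-numbered libraries correlated at 0.01, -0.16 and -0.16 in colitis of the Il1f5 line, -0.13 in colitis of the Il1f9 line and -0.14 and -0.24 in tumours of the Il1f5 and Il1f9 lines. With 2 libraries a group, crossed numbers must give the same value with the other sign, so these correlations cannot decide it. With the replicate block the count was 0 between +/+ colitis groups and 0 for the Il1f9 effect across tissues, and no other count over all collagens moved by over 1.5 times. Of the basement membrane chains of the Il1f5 line in colitis it called 2 in place of 4. Numbers crossed in the block, chosen after seeing the data, gave 0 higher and 9 lower for the Il1f9 line in colitis and 0 and 0 in tumours of either line. Groups of 2 libraries and low counts of cartilage and stratified epithelium collagens limit the precision.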

Other observations

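Exon coordinates of GENCODE M21 show how far reads of a neighbour could enter a collagen count in libraries that do not keep strand. Of the 44 members, 13 share at least 1 exon base with another gene, and 0 share as much as 10% with 1 gene. The largest share is that of Col9a3, with 234 of 3853 exon bases (6.07%) also in Tcfl5, which had 31 reads over all 18 libraries. Col4a3 shares 563 of 9967 bases (5.65%) with C430014B12Rik, which had 166 reads. Col4a1 and Col4a2 share 22 bases.

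Beside Col4a1 and Col4a2, 2 more pairs of type IV genes lie head to head, Col4a4 and Col4a3 with 71 bases between their starts on chromosome 1 and Col4a6 and Col4a5 with 1308 bases on chromosome X. In +/+ tumours against +/+ colitis colon both chains of the X-linked pair fell (-4.99 ± 0.42 for Col4a6 and -2.40 ± 0.21 for Col4a5), and neither chain of the chromosome 1 pair was called.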
